A study of Mus musculus with 6 samples.

Results

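Of the 8834 single cassette exons listed in at least 1 of 6 libraries of mouse nucleus accumbens (NAc), 1592 had coordinates that no exon of the GENCODE M21 annotation (build GRCm38) carries, and 321 of these were listed in 3 or more libraries. These 321 recurrent unannotated cassette exons, in 285 genes, are described here. An exon was identified by its gene, chromosome, strand, start and end, and was called unannotated when no M21 exon on that strand has both its start and its end. The exons were thus chosen by the number of libraries that list them, so those counts are a description and carry no test. The 3962 annotated cassette exons that were also listed in 3 or more libraries served as the comparison.

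The libraries came from adult male mice of the C57BL/6N strain after training for conditioned place preference (CPP), in which an animal learns to link a compartment with an injection. In 3 libraries the mice had received morphine (the morphine group) and in 3 saline injections (the saline group), and the NAc, a ventral striatal part of the reward circuit, was taken after the test. The series text counts more mice than samples, whereas a figure text names single mice for the libraries, so tests between libraries may measure the spread between single mice or between pools. For each library the authors deposited a list of splicing events found in its assembled transcripts, so an exon is listed only where transcripts with it and without it were both assembled. The lists hold no usable level and no read count, so the depth behind a single exon is unknown.

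A cassette exon is one that the spliceosome either includes in the mature RNA or skips together with the introns on both sides. An exon is recognised by an acceptor site at its start, where the intron ends in AG, and a donor site at its end, where the next intron usually begins with GT. When a cassette exon lies between coding exons, a length that is a multiple of 3 keeps the reading frame, whereas other lengths shift it. An exon whose inclusion brings in an early stop codon is often called a poison exon, since such RNAs can be removed by nonsense-mediated decay. Brain has many alternatively used exons, among them microexons of at most 27 nucleotides (nt), and the Rbfox, Nova and Ptbp proteins are well-known regulators of them.

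Letters for the exons could be read here only where the exon lies inside a longer annotated exon of its own strand, whose transcript sequence is given in GENCODE M21. This was so for 74 of the 321 exons. The exons shown are microexons or exons listed in all 6 libraries, chosen so that a reader can see exons that keep the frame beside exons that break it. Capitals are the unannotated exon and lower case the bases of the longer annotated exon around it, read 5′ to 3′ on the strand of the gene. Where no lower case stands on one side, that boundary is shared with the annotated exon.
Ash2l, chr8:25830375-25830392, minus strand, 18 nt: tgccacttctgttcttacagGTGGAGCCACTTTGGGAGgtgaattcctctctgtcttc
Scyl2, chr10:89654335-89654346, minus strand, 12 nt: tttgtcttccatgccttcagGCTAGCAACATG
Vdac3, chr8:22585687-22585689, minus strand, 3 nt: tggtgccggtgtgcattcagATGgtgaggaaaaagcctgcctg
Zfp511, chr7:140037118-140037134, plus strand, 17 nt: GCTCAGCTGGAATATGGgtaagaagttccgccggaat
Mib2, chr4:155658894-155658989, minus strand, 96 nt: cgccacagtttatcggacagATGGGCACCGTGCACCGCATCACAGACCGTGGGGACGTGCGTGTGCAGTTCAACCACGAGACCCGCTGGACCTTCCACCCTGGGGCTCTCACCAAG
Pkp4, chr2:59214934-59215030, plus strand, 97 nt: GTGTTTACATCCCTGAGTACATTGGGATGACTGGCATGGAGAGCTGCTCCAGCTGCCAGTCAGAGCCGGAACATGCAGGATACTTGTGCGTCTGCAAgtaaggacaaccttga
Sirt7, chr11:120619683-120619768, minus strand, 86 nt: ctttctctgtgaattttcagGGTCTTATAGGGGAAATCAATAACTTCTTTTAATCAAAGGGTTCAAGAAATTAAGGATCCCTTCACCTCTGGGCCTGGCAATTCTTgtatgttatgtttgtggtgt

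The exons of Ash2l, Scyl2, Mib2, Pkp4 and Sirt7 were listed in all 6 libraries, that of Zfp511 in 4 and that of Vdac3 in 3. Ash2l encodes a subunit of histone H3K4 methyltransferase complexes, Mib2 a ubiquitin ligase of the Notch pathway, Pkp4 a junctional plakophilin, Sirt7 a nucleolar deacylase and Vdac3 a channel of the outer mitochondrial membrane. Inserted between their coding neighbours, the exons of Ash2l, Scyl2, Mib2 and Vdac3 kept the frame with no stop codon inside the exon. A codon that runs from the exon into the next coding exon was not read, here and below. The exon of Zfp511 shifted the frame, and those of Pkp4 and Sirt7 placed a stop codon inside the exon. The exon of Vdac3 is the triplet ATG alone.

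The splice sites of exons with readable sequence were nearly uniform at the acceptor and less so at the donor. All 43 unannotated acceptors were preceded by AG, as were the 824 acceptors read in the same way for annotated cassette exons inside longer exons. Of 36 unannotated donors, 31 were followed by GT (86.1%) and 5 by GC (13.9%, exact Clopper-Pearson 95% interval 4.67% to 29.5%). Among 785 annotated donors, 768 were followed by GT (97.8%) and 17 by GC (2.17%, interval 1.27% to 3.44%), so the intervals did not overlap. The intervals cover counting error only. For the remaining exons, which no single annotated exon of their strand covers or which lie on patches, no letters were read. Donor windows of 3 of the exons with GC are shown, with the last 10 bases of the exon first and the GC in capitals.
Eif2s3y: ccatcactagGCaagctg
Tenm2: accgaaacagGCacatat
Gpr173: tttagtggagGCatgtca

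The Eif2s3y exon (chrY:1016991-1017095, plus strand, 105 nt) was listed in 4 libraries, the Tenm2 exon (chr11:36139549-36139761, minus strand, 213 nt) in 5 and the Gpr173 exon (chrX:152367121-152367269, minus strand, 149 nt) in 3. Eif2s3y encodes a subunit of the translation initiation factor eIF2, Tenm2 a teneurin adhesion protein and Gpr173 an orphan receptor.

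A smaller share of the unannotated than of the annotated exons recurred. Listing in 3 or more libraries applied to 20.2% of the unannotated and 54.7% of the annotated cassette exons, and listing in all 6 to 4.77% and 28.4%. Of the unannotated exons, 63.6% were listed in a single library, against 32.5% of the annotated ones. The 321 recurrent exons comprised 113 listed in 3 libraries, 61 in 4, 71 in 5 and 76 in 6. Just outside the rule stood 258 unannotated exons listed in 2 libraries, with a median length of 115.5 nt and 40.3% of lengths a multiple of 3. Just inside it, the 113 exons listed in 3 libraries had a median of 99 nt and 42.5%.

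**Figure D1:**
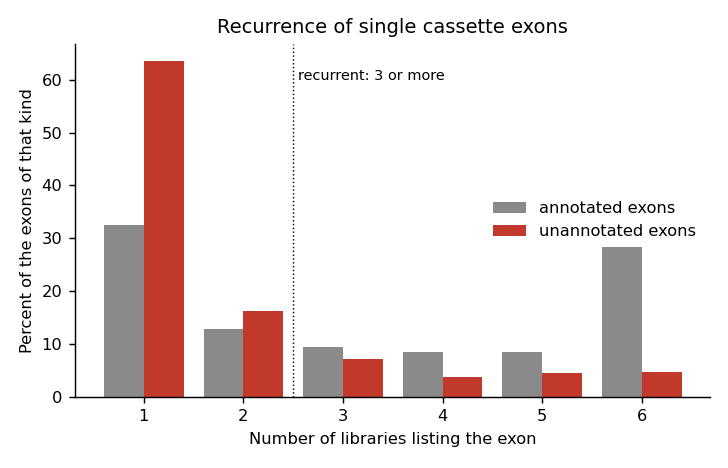
Percent of the 7242 annotated (grey) and 1592 unannotated (red) single cassette exons, on the y axis, by the number of libraries that list them, on the x axis; the dotted line marks the limit of 3 libraries. Unannotated exons are concentrated at 1 library (63.6%), while annotated exons have a second peak at 6 libraries (28.4%).

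The same difference was seen library by library. Exons listed in 3 or more of the other 5 libraries were looked up in the 6th, each library in turn. Of the unannotated exons so chosen, 65.4%, 64.2% and 67.5% were listed in saline 1, 2 and 3, and 63.0%, 71.8% and 67.3% in morphine 1, 2 and 3. Of the annotated exons, 80%, 81.9% and 84.4% were listed in the saline and 81.4%, 83.2% and 82.5% in the morphine libraries. The unannotated share was the lower in 6 of 6 libraries, with a mean of 66.5% ± 3.13 (SD, n = 6) against 82.2% ± 1.51, a difference of -15.7 ± 2.57 percentage points. These shares follow largely from how many libraries list each exon, the measure that chose the exons, so they are a description with no test.

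**Figure D2:**
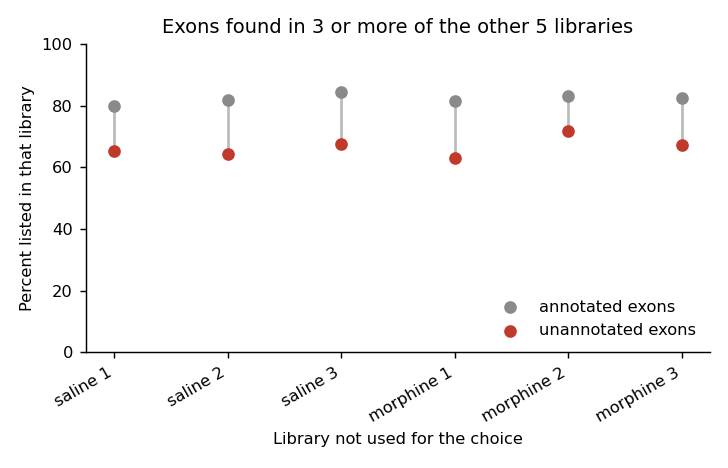
Percent of exons listed in a library (y axis) among those listed in 3 or more of the other 5, for each library on the x axis, with unannotated exons in red and annotated exons in grey. The red points lie between 63.0% and 71.8% and below the grey points, 80% to 84.4%, in every library.

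The 321 exons fell into classes by how much of them the annotation already knows. The largest held 182 exons (56.7%) that overlap no annotated exon of their strand, called separate here, and 171 of these lay wholly within an annotated intron. A further 84 exons (26.2%) had one known boundary, of which 33 joined a known acceptor to another donor and 51 a known donor to another acceptor. In 31 (9.66%) both boundaries were known, but no annotated exon joins the pair, and 6 of these lay wholly inside a longer annotated exon. Another 12 overlapped an annotated exon with neither boundary known, and 12 lay on patch sequences, for which the annotation used here gives no exon. By the gene named in the lists, 307 exons were assigned to protein-coding genes of M21, and 14 carried a gene identifier that M21 does not hold.

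The separate exons had the size of ordinary cassette exons, and the stretch around them was longer, mainly where it was not an intron between coding exons. Their median length was 91 nt (quartiles 57 and 131) against 93 nt (60 and 135) for the annotated exons. The stretch removed when the exon is skipped had a median of 8285 nt (quartiles 3799.5 and 25981.2) against 5490 nt (2492 and 12722.5). The separate exons lay a median of 3241 nt after the exon before them and 3225 nt before the next one, with 2179 and 2301.5 nt for annotated exons. The skipping junction was itself an annotated intron for 165 of the 182 separate exons (90.7%, interval 85.5% to 94.5%) and for 88.5% of the annotated exons. In 127 (69.8%) that intron lay between coding exons, against 67.7% of the annotated exons. For these the median stretch was 5868 nt (quartiles 3086 and 15719.5) against 5111 nt (2397 and 10759). For the 55 other separate exons it was 20905 nt, against 6981 nt for the other annotated exons.

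Pooled over exons listed in 3 or more libraries, lengths kept the frame less often among separate exons than among annotated ones. A multiple of 3 was found for 90 of 182 separate exons (49.5%, interval 42.0% to 56.9%) and for 2438 of 3962 annotated exons (61.5%, interval 60% to 63.1%). Between coding exons it was 71 of 127 (55.9%, interval 46.8% to 64.7%) against 73.5% (71.7% to 75.1%). Where the intron was not between coding exons the shares were 34.5% (22.2% to 48.6%) and 36.5% (33.9% to 39.2%), with overlapping intervals. Among separate exons between coding exons, the share was 40.2% (34.6% to 46.0%) for the 301 exons listed once, 44.2% in 2 libraries, 52.8% in 3, 44.4% in 4, 60.6% in 5 and 64.5% (45.4% to 80.8%) for the 31 exons listed in all 6. For annotated exons the corresponding shares ran from 57.6% (53.9% to 61.1%) listed once to 79.5% (77.4% to 81.4%) in all 6. At each count from 3 to 6 libraries the share of separate exons was the lower, but the intervals overlapped. Between coding exons, 1587 of 2683 annotated exons and 31 of 127 separate exons were listed in all 6, so the pooled sets differ in recurrence. Length was not used by the rule, and the intervals count each exon as independent although some share a gene.

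**Figure D3:**
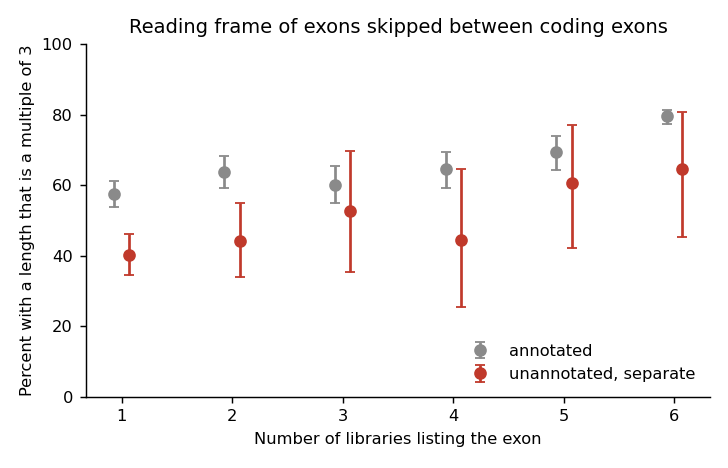
Percent of exons whose length is a multiple of 3 (y axis) by the number of libraries that list them (x axis), for exons skipped between coding exons, with exact 95% intervals as bars; grey, annotated, and red, unannotated separate exons. Red points run from 40.2% at 1 library to 64.5% at 6 and grey points from 57.6% to 79.5%, and the red intervals at 3 to 6 libraries are wide.

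Reading the 49 exons that have sequence and lie between coding exons gave 13 that keep the frame with no stop codon inside the exon. Besides Ash2l, Scyl2, Mib2 and Vdac3 they were in Bcl11b, Jade3, Nlgn1, Pclo, Pde4dip, Rab11fip5, Sema4d, Trappc8 and Wdr20. Bcl11b encodes a transcription factor that marks striatal projection neurons, Nlgn1 the postsynaptic adhesion protein neuroligin 1 and Pclo the presynaptic scaffold piccolo. In 25 the insertion brought a stop codon inside the exon, among them Epha6, Hdac7, Hdac8, Pkp4, Sirt7 and R3hdm1. The remaining 11 shifted the frame with no stop inside the exon, among them Atp2b1, Gulp1 and Ripk1.

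Microexons made up 26 of the 321 exons (8.1%) and 6.89% of the annotated ones, and 4 of the 26 were listed in all 6 libraries. These were in Ash2l and Scyl2, shown above, and in Eprs (chr1:185387357-185387377, 21 nt) and Tenm3 (chr8:48311675-48311692, 18 nt). Eprs encodes the bifunctional glutamyl-prolyl-tRNA synthetase, Scyl2 a clathrin-associated pseudokinase and Tenm3 a teneurin that guides synaptic partner choice. All 4 have lengths that are multiples of 3. In Tenm3 a second form of 21 nt, which differs by 3 nt at the acceptor, was listed in 3 libraries. Other separate microexons with a length that is a multiple of 3 included those in Dtna (9 nt, 5 libraries) and Ap1b1 (9 nt, 4 libraries). Further ones were in Msi2 (24 nt, 5 libraries), Kdm1b (21 nt, 4 libraries) and Cacna1h (18 nt, 4 libraries). Separate microexons of other lengths were in Patj (20 nt, 5 libraries), Pkd1 (19 nt, 5 libraries) and Bclaf3 (26 nt, 4 libraries). Those in Pxk (19 nt) and Efemp2 (17 nt) were listed in 3 libraries each. Of the 14 separate microexons, 9 had a multiple of 3 (64.3%, interval 35.1% to 87.2%). Msi2 is an RNA-binding protein, Kdm1b a histone demethylase and Cacna1h a T-type calcium channel. Of all 26, 16 had a length that is a multiple of 3 (61.5%, interval 40.6% to 79.8%), against 250 of the 273 annotated microexons (91.6%, interval 87.6% to 94.6%). The 4 listed in all 6 libraries were 15.4% of the 26, while 57.5% of the annotated microexons were listed in all 6, a description since the listing chose the exons.

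Pairs of listed exons that share one boundary were found 9 times, among them in Tenm3, Rere, Snx21, Lrrc7, Dram1, Ermard, Ank3 and Sema4d. The smaller differences were 3 nt at the Tenm3 acceptor, 5 nt at the Snx21 donor, 7 nt at the Rere acceptor and 13 nt at the Lrrc7 donor, and of these only that of Tenm3 leaves the frame the same.

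The list of splicing and RNA-binding genes held 4 of the exons, each a separate exon in the gene of a known splicing regulator. The exon of Rbfox1 (chr16:7391988-7392040, 53 nt) and that of Rbfox2 (chr15:77089862-77089893, 32 nt) were listed in all 6 libraries, that of Nova1 (chr12:46766290-46766391, 102 nt) in 5 and that of Ptbp1 (chr10:79860447-79860502, 56 nt) in 4. The Rbfox1 exon lay 16018 nt from the exon before and 15923 nt from the exon after it. Only the exon of Nova1 has a length that is a multiple of 3. In all, 4 of the 101 genes of the splicing list held an exon of this kind, while 50 held a recurrent annotated cassette exon.

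Among synapse and vesicle release genes, 5 of 91 held 8 of the exons (62 genes for recurrent annotated exons), and Rims2, which encodes an active-zone scaffold, held 4, the most among genes of M21. A gene identifier on a patch, which M21 does not hold, also had 4. The 4 exons of Rims2 (chr15, plus strand) were 60 nt at 39442157-39442216, 48 nt at 39469155-39469202, 27 nt at 39482189-39482215 and 33 nt at 39555065-39555097. All 4 have lengths that are multiples of 3 and lie in annotated introns between coding exons. The first 3 were listed in every library but saline 2, and the last in all 6. Erc2, another active-zone protein, had an exon of 220 nt (chr14:28383824-28384043) in all 6 libraries, 66509 nt after the preceding exon and 91559 nt before the next. The exon of Dlgap1, a postsynaptic scaffold, was listed in 4 libraries, that of Nlgn1 in 4 and that of Pclo in 3.

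Adhesion and axon guidance genes had 13 exons in 9 of 97 genes. Of the 13, 7 were listed in all 6 libraries, against 76 of the 321 exons, a description since the listing chose the exons. The list held 4.05% of the 321 exons and 2.83% of the annotated ones, the latter in 48 of its genes. The share was the lower one for splicing (1.25%, annotated 1.94%), synapse (2.49%, 3.58%), ion channel (0.623%, 1.34%) and receptor genes (0%, 1.14%). It was also lower for cytoskeletal (1.87%, 4.14%) and ubiquitin genes (1.87%, 1.99%), and nearly equal for chromatin genes (2.8%, 2.75%). Cntn5, a contactin, had exons of 66 nt (chr9:10168768-10168833, all 6 libraries) and 128 nt (5 libraries). The exon of Cntnap5c (105 nt, chr17:57890461-57890565), a contactin-associated protein, and that of Ptprm (51 nt, chr17:66697653-66697703), a receptor tyrosine phosphatase of cell contacts, were listed in all 6. Sema4d, a transmembrane semaphorin, had 3 exons, of 2042 nt in all 6 libraries, 330 nt in 4 and 32 nt in 5. Adgrl2 had an exon of 863 nt and the ephrin receptor Epha6 one of 120 nt in all 6 libraries, and the exon of Cadm2 was listed in 3.

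The counts here and above are for chosen lists, which do not hold every gene of a kind. The chromatin list had 9 exons in 8 of 129 genes (68 genes for recurrent annotated exons). They included Hdac7 (256 nt) and Hdac9 (97 nt) in 5 libraries each, and Kmt2c (48 nt) in 3. Ash2l, Kdm1b and Hdac8, named elsewhere in the text, are outside this list. Cytoskeletal genes had 6 in 5 of 95 (65 genes for recurrent annotated exons), with Ank3, the ankyrin of the axon initial segment, in all 6 libraries. Ubiquitin and trafficking genes had 6 in 6 of 100 (49 genes for recurrent annotated exons), among them Agap3 in all 6 libraries and Huwe1 in 3. The ion channel list had 2 in 87 genes (31 genes for recurrent annotated exons), in Cacna1h and in the sodium leak channel Nalcn (96 nt, 3 libraries). An exon of Scn9a on the strand of that gene (81 nt, 4 libraries) is outside this list. No exon of this kind was listed for the 82 genes of receptors and cAMP signalling, of which 81 were listed with some event and 28 held a recurrent annotated cassette exon. Over all lists the genes held 48 of the 321 exons (15.0%) and 781 of the annotated exons (19.7%).

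Outside the lists, separate exons were listed in all 6 libraries in genes of many kinds. Lingo2, a neuronal leucine-rich repeat protein, had 3 exons in its long introns, of 110 nt in all 6 libraries, 84 nt in 5 and 83 nt in 3. The gene of the actin crosslinker filamin A, Flna, had one of 57 nt (chrX:74240816-74240872) in a short intron, 230 nt from the exon before and 265 nt from the exon after it. Taok1, a MAP kinase kinase kinase, had exons of 63 and 87 nt, and Zranb1, a deubiquitinase, had one of 124 nt, each listed in all 6 libraries. Camta1 (142 nt), Cnot7 (39 nt), Fat3 (69 nt) and Cdk13 (48 nt) were further examples. In all, 45 of the 182 separate exons were listed in all 6 libraries.

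The 31 exons with both boundaries known were of another size, with a median of 2054 nt (189 to 22231 nt) and 26 of them over 500 nt. Ank3 had an exon of 6393 nt (chr10:69986083-69992475) in all 6 libraries and a form longer by 1287 nt in 4. Exons of Hook3 (4100 nt), Mtf2 (4293 nt), Wsb1 (1077 nt), Emsy (655 nt), Agap3 (226 nt) and Tep1 (2063 nt, on the other strand than the gene) were also listed in all 6. The longest, in Cnot4 (chr6:35024128-35046358), was 22231 nt.

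Strand and sequence assignment set some exons apart. On the strand opposite to the gene named in the lists lay 16 exons, 10 of them inside another M21 gene of that strand. These included exons given to Dlx6 inside Dlx6os1, to Scn9a inside Gm13629 and to Rtl1 inside Rian, a long non-coding RNA of the same imprinted domain, so the gene name of the lists is uncertain for them. Of the 12 exons on patches, 9 had a chromosomal counterpart of the same length, strand and distances to both neighbours. In 7 of the 9 the counterpart was an annotated exon, as for Arvcf (18 nt), and these exons counted as unannotated only through the patch. In 2, both in the Rian region, the counterpart was itself unannotated and recurrent.

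Between libraries, the number of the 321 exons listed was 230, 223 and 235 in saline 1, 2 and 3, and 221, 250 and 235 in morphine 1, 2 and 3. The group means, 229.3 ± 6.03 and 235.3 ± 14.5 (SD, n = 3 each), are given without a test, and the groups overlapped. Where an exon was not listed in a library (532 exon and library pairs), its gene was listed with another event in all 532, and the same exon stood under another event type in 36 (6.77%). Marker genes of striatal projection neurons (12 of 12), astrocytes (5 of 5) and oligodendrocytes (5 of 5) were listed with some event in all 6 libraries. So were those of microglia (4 of 4) and of ependyma and choroid plexus together (4 of 4). Of 3 endothelial markers 2 were, and Cldn5 was never listed. A listing needs a splicing event and gives no level, so an unlisted marker is no measure of its cells or their RNA. Nor could fewer cells of a type and less RNA per cell be told apart in tissue.

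Over all unannotated cassette exons, including those listed once, the groups did not differ beyond the spread between libraries. The saline libraries listed 429, 427 and 544 and the morphine libraries 483, 562 and 478, so the ranges overlapped. The means were 466.7 ± 67.0 and 507.7 ± 47.1, a difference of 41 exons (exact permutation test, two-sided, p = 0.5, n = 3 per group). As a share of all cassette exons of a library, the values were 9.99%, 9.73% and 11.7% in saline and 10.7%, 11.9% and 10.7% in morphine. The means of the share were 10.5% ± 1.05 and 11.1% ± 0.707, with a difference of 0.654 percentage points (exact permutation test, p = 0.4, n = 3 per group). With 3 against 3 libraries no p under 0.1 can be reached.

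Both measures tended to be higher in deeper libraries. Relative depth, set to 1 in saline 1, was 1.07 and 1.37 in saline 2 and 3 and 1.2, 1.59 and 1.29 in the morphine libraries. The number of unannotated exons correlated with it over the 6 libraries (Pearson r = 0.951, exact permutation p = 0.00556, adjusted 0.00833 over 3 relations; Spearman's rank correlation 0.886, exact p = 0.0333, adjusted 0.0333). Their share of the listed cassette exons did so as well (r = 0.941, exact permutation p = 0.00833, adjusted 0.00833; Spearman's rank correlation 0.886, exact p = 0.0333, adjusted 0.0333). Without saline 1 and morphine 2, the libraries farthest from the median depth, r was 0.932 and 0.949. The third relation, of all cassette exons, gave r = 0.945 (exact permutation p = 0.00833, adjusted 0.00833) and 0.877 without those libraries. The labels give no batch, and a group has too few libraries for a value of its own.

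**Figure D4:**
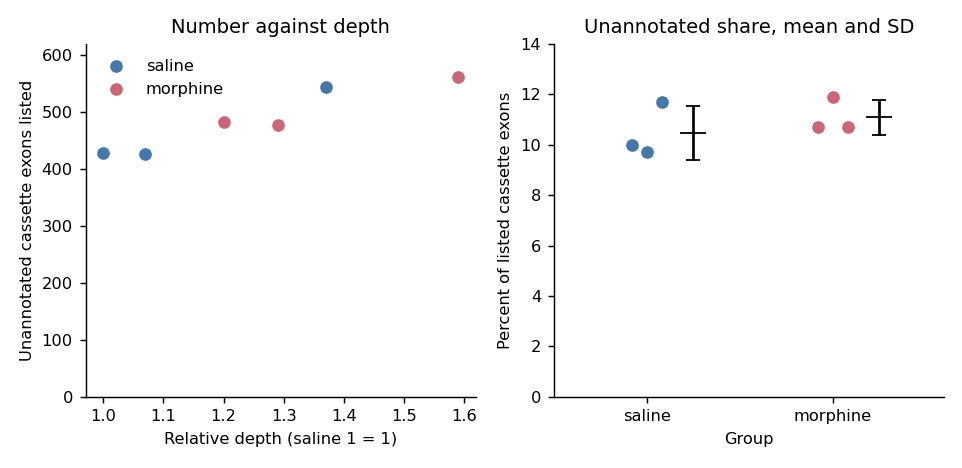
Left, the number of unannotated cassette exons listed in a library (y axis) against relative depth (x axis); right, their percent of all listed cassette exons by group, with the mean and SD in black; blue, saline, and red, morphine, 1 point per library. The number tends to rise with depth over the 6 libraries, with 429 at depth 1 and 562 at depth 1.59, but not at every step. The groups overlap in both panels.

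By group, 22 of the 321 exons (6.85%) were one-sided, that is, listed in the 3 libraries of one group and in no library of the other. Over all 4283 cassette exons listed in 3 or more libraries the share was 2.59%, and among the annotated ones 2.25%. Saline only were 9 exons (2.8%, against 1.14% of all 4283) and morphine only 13 (4.05%, against 1.45%). Such a pattern is open only to exons listed in exactly 3 libraries, which are a larger part of the unannotated set. Among exons listed in exactly 3 libraries it was seen for 22 of 113 unannotated (19.5%), for 13.2% of 676 annotated and for 14.1% of all 789. For a single exon, 3 against 3 libraries allow no p under 0.1. Of the 321 exons, 112 were listed in more morphine than saline libraries, 102 in more saline than morphine libraries and 107 in equally many, and 299 were listed in both groups.

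The exons listed in the 3 saline libraries and no morphine library included 6 separate ones. They were in Dab1 (chr4:104280470-104280580, 111 nt), the adaptor of Reelin signalling, Syne1 (chr10:5412863-5412910, 48 nt), which encodes the nuclear envelope protein nesprin 1, and Arhgap35 (chr7:16598878-16598934, 57 nt), a GTPase-activating protein. The others were in Rasal2 (chr1:157143570-157143600, 31 nt), a GTPase-activating protein for Ras, Golt1b (chr6:142401141-142401173, 33 nt), a Golgi transport protein, and Dram1 (chr10:88372078-88372223, 146 nt), a lysosomal membrane protein. The Dram1 exon has a form of 127 nt with the same acceptor that was listed in 5 libraries, so the listing was one-sided for the longer form alone. The 3 saline-only exons outside this class were in Alyref (113 nt), Arhgap18 (428 nt) and Cnot4.

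In the morphine group the separate exons listed in all 3 libraries and in no saline library were in Efemp2 (chr19:5479802-5479818, 17 nt), which encodes fibulin 4, Padi2 (chr4:140930977-140931042, 66 nt), a peptidylarginine deiminase, and Cog7 (chr7:121928599-121928634, 36 nt), a subunit of the Golgi COG complex. Others were in Dzip3 (chr16:48972472-48972608, 137 nt), a ubiquitin ligase, Zfyve16 (chr13:92529005-92529054, 50 nt), an endosomal protein, and at chr17:14988388-14988591 (204 nt), a stretch that the lists assign to Ermard but that lies outside the M21 span of this gene and on the other strand. A separate exon of 66 nt inside Mical3 carried a gene identifier that M21 does not hold. The exon assigned to Ermard has a form of 111 nt with the same acceptor in all 6 libraries. Exons of Hdac8 (124 nt) and Gpr85 (138 nt), each with one known boundary, showed the same pattern.

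The remaining 4 of the 13 morphine-only exons have a copy elsewhere in the assembly, and 3 of these copies were listed in saline too. The exon of 99 nt in the Rian region (chr12:109644804-109644902) was listed at that position in the 3 morphine libraries, and its patch copy in saline 3, morphine 2 and morphine 3. The exon of 176 nt (chr12:109617174-109617349) was listed there in the 3 morphine libraries, and its patch copy in saline 3, morphine 1 and morphine 2. The Arvcf exon of 18 nt was listed on the patch in the 3 morphine libraries and on chromosome 16 in all 6. The 88-nt exon of the Rian patch was listed in the 3 morphine libraries at both places. Counting each copy pair as 1 exon left 19 of the 22 one-sided exons, 10 of them morphine-only. These still include the 88-nt exon, whose chromosomal copy is an annotated exon, so that it counted as unannotated only through the patch.

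**Figure D5:**
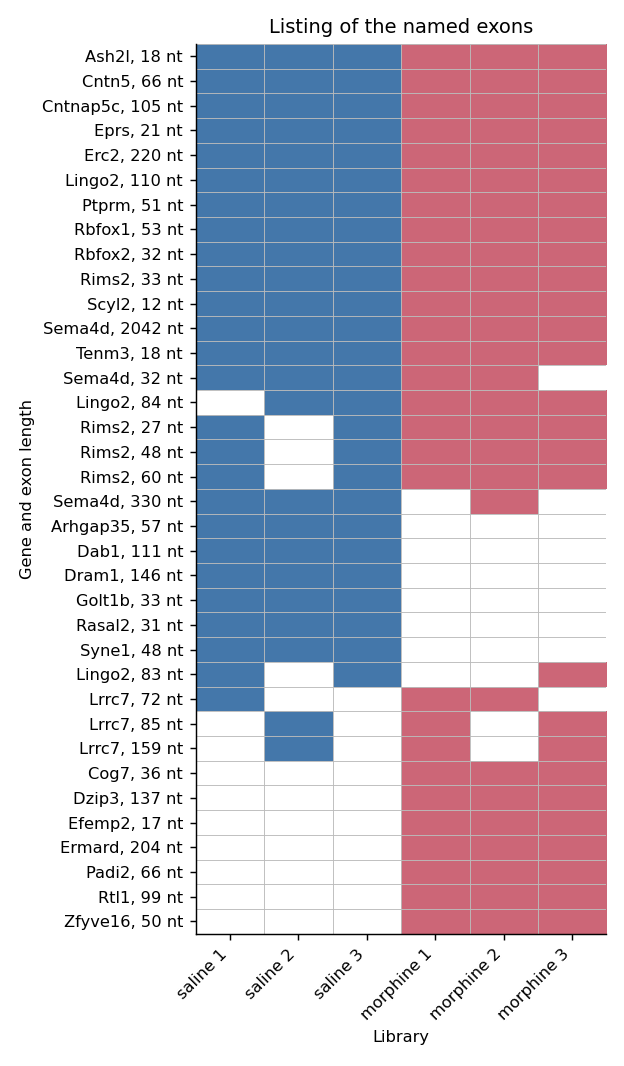
Listing of the named exons (rows, with gene and length) in the 6 libraries (columns); a filled cell means that the exon is listed, blue in saline and red in morphine libraries. The upper 13 rows are listed in all 6 libraries, 6 rows only in saline and 7 only in morphine; the row Rtl1, 99 nt, lies in Rian and has a patch copy listed in saline 3.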

How the data were processed

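Total RNA of the NAc was sequenced by the authors in 6 libraries, grouped here by the treatment label. Replicate numbers follow accession order and serve as names only. Per the study's methods, libraries were directional, reads were mapped with HISAT2 and transcripts were assembled with StringTie. The genome build is not given in the sources used here; positions matched M21 on GRCm38 and are counted from 1.

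The event lists, deposited by the authors per library, carry a column named FPKM that holds only 0 and negative whole numbers, treated as a score of unknown meaning and not used. The deposited lncRNA table holds read counts and, made by the authors with StringTie, FPKM values (normalised to length and mapped fragments) for transcripts called differential. It served here only for relative depth, fitted by weighted least squares to log(count/FPKM) of 91 values with at least 10 counts. Its fold changes and p-values are the authors' own and were not used. Total depth was not analysed here.

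Single cassette exons (SKIP_ON entries) were merged by gene, chromosome, strand, start and end and compared with every M21 exon. An exon absent from a list may still be in the tissue. Only numbers and shares of listed exons were correlated with relative depth, and the part that depth has in the listing of a single exon was not tested. The members and gene lists were chosen with earlier results of these data known. Named were one-sided exons (over 12, so only those with no known boundary in a protein-coding gene of M21), microexons in all 6 libraries, separate exons of listed genes in all 6, and the 5 genes of M21 with most exons. The rule also asked for AG and GT at the splice sites, which could not be read for most exons and was dropped. Results for some exons that the rule names are not reported here. Other exons named in the text were chosen after their values were seen, as were the comparison with patch copies and the pairs that share a boundary. Intervals are exact Clopper-Pearson at 95% and cover counting error only. Group tests are two-sided exact permutation tests, checked only on fixed numbers, 3 against 3 without overlap. Merging, annotation matching and listing in a library not used for the choice were checked on simulated event lists. A sign-flip test was planned for listing in a library not used for the choice, but its p is not given, since the shares follow largely from the listing counts that chose the exons. The software was Python 3.11.15 with scipy 1.17.1 for tests, pandas 2.3.3, numpy 2.4.6, and matplotlib 3.10.9 for figures. Alternatives were other library minimums, other definitions of an unannotated exon, other identities, strand, complex cassette entries and each library left out in turn.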

Additional observations from a re-analysis of the deposited data

How the results depend on the processing

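The number of recurrent unannotated exons, 321, was 579 with a minimum of 2 libraries, 208 with a minimum of 4 and 206 when exons with a known boundary were left out. The other 5 definitions gave 291 to 354, and leaving out one library, with 3 of 5 still required, gave 252 to 274. One-sided exons numbered 16 to 23 against 22, with 20 when patches were left out (added after seeing the data), and 26 to 29 without one library, where an arm of 2 libraries makes the pattern easier to meet. The difference in unannotated exons between groups, 41, ran from 13.8 without morphine replicate 2 (exact permutation p = 1) to 79.7 without saline replicate 3 (exact p = 0.1, the smallest that 2 against 3 libraries allow). The difference in share ran from 0.246 to 1.25 percentage points, without the same libraries. The lower listing of unannotated exons in a library not used for the choice was -25.2 percentage points with a minimum of 2 of the other 5 libraries, -8.54 with a minimum of 4, and -13.9 for exons that overlap no annotated exon (added after seeing the data). Without one library it was -16.5 to -15.1. These values are a description, since the listing chose the exons.

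The filters on AG and GT at the splice sites were not run. Sequence was read only inside annotated exons. No paired analysis was possible because the labels give no replicate numbers. No level, read count or test per exon can be had from the lists.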
